A study of Mus musculus with 32 samples.

Results

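Homologous recombination, the Fanconi anaemia pathway and the replication checkpoint were followed through 35 named mouse genes, chosen as a list of symbols and read through every probe that carries a RefSeq accession of one of them. The arrays named 20660 genes in all. They held 44 probes for 34 of the 35 members, and Rad51c had no probe and was not analysed here. Every one of the 34 members passed the filter on dim probes in each comparison, and 9 of them had more than 1 probe.

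The study followed neuroblastoma that arises in the sympathetic ganglia of TH-MYCN mice. Spheres passaged 5 times (4 cultures, each on 2 arrays that were averaged) and primary spheres cultured for 8 days (8 cultures) were grown from 3-week-old TH-MYCN hemizygous (TH-MYCN+/-) mice. Superior mesenteric ganglia (SMG), the sympathetic ganglia in which tumours form in this model, came from 3-week-old mice of the same hemizygous genotype (8 samples) and from 3-week-old wild-type mice (8 samples). All mice had the 129+Ter/SvJcl background. In this line a MYCN transgene is driven by a tyrosine hydroxylase promoter, which is active in cells of the sympathetic lineage. The labels call the samples of a group biological replicates and do not say which animal gave which sphere culture.

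Homologous recombination repairs a broken chromosome by copying the intact sister. BRCA1 with BARD1 starts the choice of this route, PALB2 and BRCA2 act next at the resected single-stranded DNA, and RAD54 proteins help the strand to invade. The Fanconi anaemia proteins recognise crosslinked DNA at stalled forks: a core complex adds ubiquitin to FANCD2 and FANCI, which then brings in nucleases and recombination. Single-stranded DNA coated with RPA calls ATR with its partner ATRIP, which through TOPBP1 and claspin switches on CHK1, while ATM and CHK2 answer to breaks. Many of these genes are transcribed with S phase, and E2F factors are known to bind several of their promoters.

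Promoter letters are shown because the members moved together and because E2F-type words are a known feature of S-phase genes. RefSeq promoters of mouse assembly GRCm38.p6, each running from 250 bases before to 50 bases after a gene's start, were matched for 29 members. The words TTTCGCGC, TTTGGCGC and TTTCCCGC were searched on both strands; matches can overlap, and the joint count takes each promoter once. A gene was counted if any of its promoters held a word. At least 1 of them stood in the promoter of 7 of 29 members (24.1%), against 2.12% of 27025 genes (1.85% of 32851 promoters). These 7 were Bard1, Brca2, Chek2, Clspn, Fancg, Topbp1 and Rad51c, the last of which had no probe on the arrays. TTTCCCGC was found in 5 members and in 1.24% of all genes, TTTCGCGC in 3 members and in 0.374%, and TTTGGCGC in 0 members and in 0.585%. A further word of cell cycle genes, TTTGAA, was found in 1 of the 29 members (Bard1), against 20.2% of all genes. A match is a description of these letters, and binding was not measured. The 5 members whose word lies before the start used in the promoter table follow with 30 bases each, 5′ to 3′ on the gene's strand, the word or its reverse complement in capitals. The starts in the promoter table differ from the outer gene ends in the gene table of the same assembly. By those outer ends the Brca2, Chek2, Fancg and Topbp1 stretches lie inside the gene, and only the Bard1 stretch lies upstream of it.
Bard1, chr1:71103163-71103192, minus strand: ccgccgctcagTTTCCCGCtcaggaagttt
Brca2, chr5:150522442-150522471, plus strand: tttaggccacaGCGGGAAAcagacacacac
Chek2, chr5:110839820-110839849, plus strand: cgggattagccGCGGGAAAccaagacgtcg
Fancg, chr4:43010335-43010364, minus strand: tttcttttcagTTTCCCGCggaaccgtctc
Topbp1, chr9:103305187-103305216, plus strand: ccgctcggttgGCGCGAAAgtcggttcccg
The word began 209 bases before the start used in the promoter table in Bard1, 168 in Brca2, 152 in Chek2, 52 in Fancg and 129 in Topbp1.

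Levels are log2 of the spot's processed signal minus the log2 75th percentile of the same array, so 0 is the 75th percentile and 1 unit is 2-fold. Levels of different genes were read by different probes and are not set against each other. The 75th percentile of signal was 322.7 to 538.9 on passaged sphere arrays, 464.1 to 563.8 on primary sphere arrays, 840.2 to 1358 on TH-MYCN SMG arrays and 522.7 to 988.6 on wild-type SMG arrays. Spots well above background made up 49.0% to 53.9%, 57.0% to 59.7%, 59.1% to 64.1% and 60.4% to 65.7% of the arrays of these groups, in the same order. Ganglia lay on slides 1 and 2, spheres on slides 3 and 4, so slide and the difference between spheres and ganglia cannot be told apart. On the slides, TH-MYCN SMG and passaged spheres took row 2 while wild-type SMG and primary spheres took row 1, so row and group cannot be told apart in those pairs. The 9 sympathetic markers were tested in every comparison, which alone does not check the tissue of each group. Their mean level was 4.44 to 5.01 in passaged spheres, 4.46 to 4.90 in primary spheres, 5.32 to 5.97 in TH-MYCN SMG and 5.78 to 6.38 in wild-type SMG. Tyrosine hydroxylase averaged 7.72 ± 0.34 in TH-MYCN SMG and 8.57 ± 0.18 in wild-type SMG (SD, n = 8 each). The mouse Mycn probe averaged 4.05 ± 0.15 in passaged spheres (n = 4), 3.61 ± 0.16 in primary spheres, 1.00 ± 0.12 in TH-MYCN SMG and 1.30 ± 0.36 in wild-type SMG (SD, n = 8 each). It is a probe of the mouse gene and does not check the transgene.

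**Figure D1:**
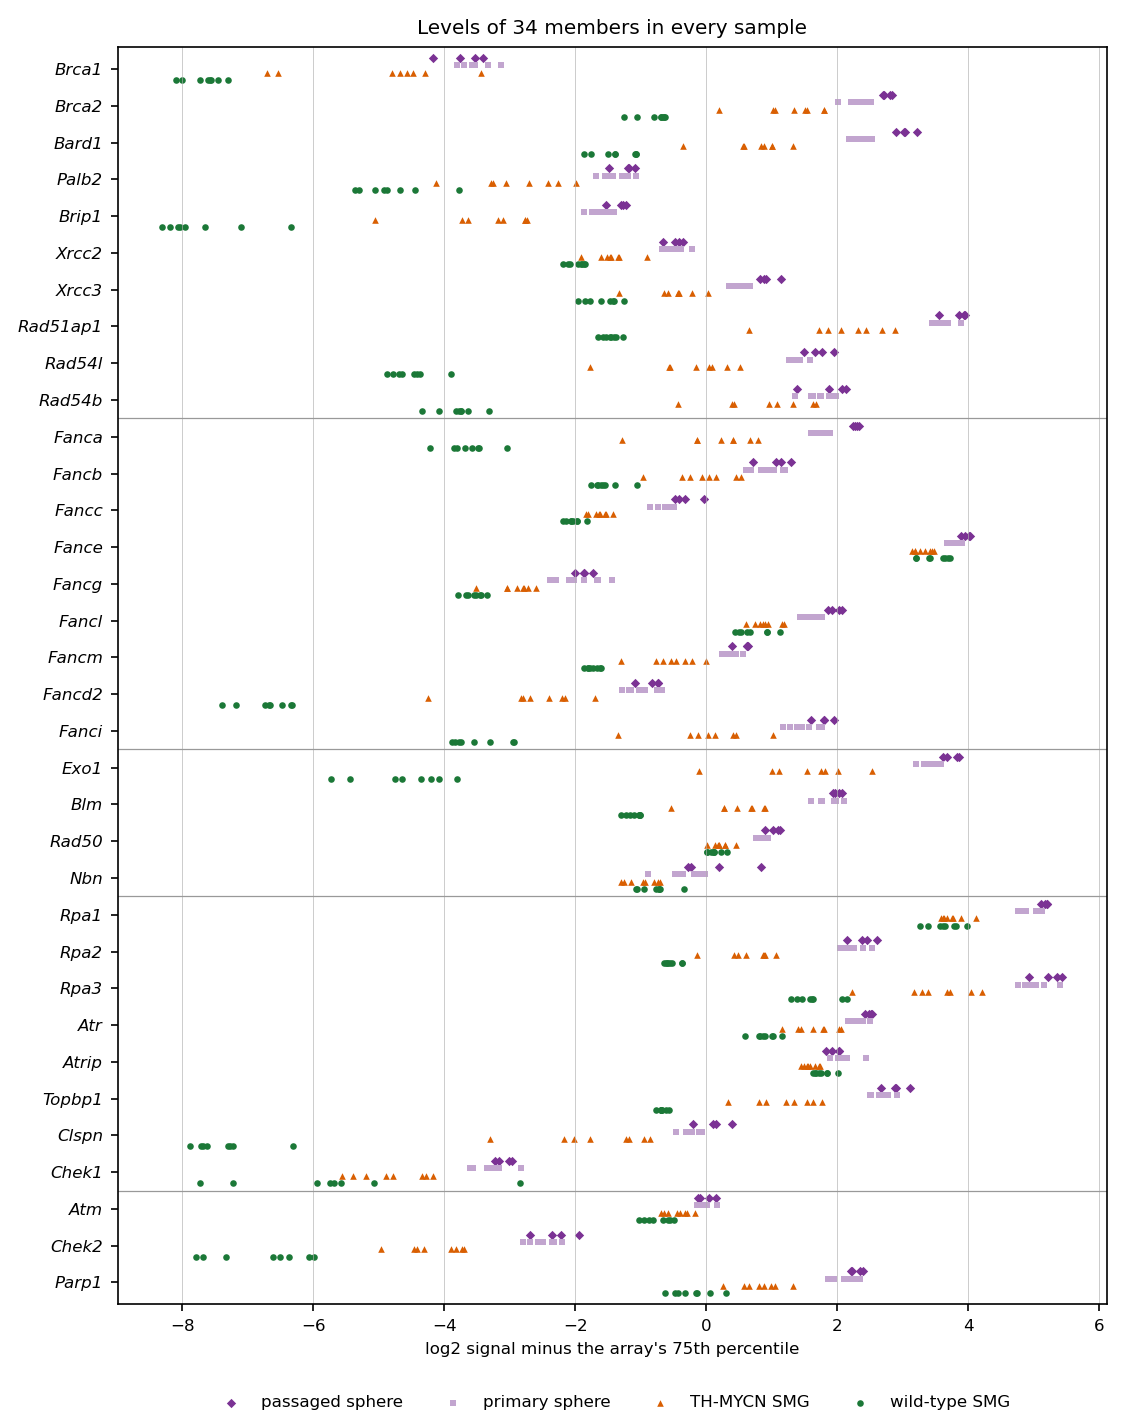
Level of each of the 34 members with a probe in every sample, as log2 signal minus the array's 75th percentile (x axis); points are samples and lines part break repair, Fanconi, ends and junctions, single strands with the replication checkpoint, and break signalling. The wild-type SMG lie lowest for most members, the TH-MYCN SMG spread most widely in 24 of 34 members, and both kinds of sphere sit close together at the high end. The share of all genes that spread most widely in TH-MYCN SMG was not counted.

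The first comparison asked how ganglia of TH-MYCN mice differ from wild-type ganglia at 3 weeks. Most members were higher in TH-MYCN SMG: 27 of 34 were called higher, 1 lower and 6 were not called (limma, Benjamini-Hochberg adjusted p under 0.05), where 21.9% of 15845 tested genes were called higher and 43.8% lower. With the median tested gene set to 0 these shares were 32.6% and 26.2%, with 30 members higher and 0 lower. The members' median log2 difference was 1.52, and that of all tested genes was -0.22. In 20 members every TH-MYCN ganglion lay above every wild-type ganglion, as in 9.17% of all tested genes. Brca1, Brip1, Fancd2 and Clspn were well above background in no wild-type SMG, so they entered the test through the TH-MYCN SMG. Chek2, in 1 of 8 wild-type SMG, and Chek1, in 3 of 8, also fell short of the 4 samples needed without the TH-MYCN SMG. All of these but Chek1 count among the 27 called higher and the 20 without overlap. Within slide 1 alone 25 of 33 tested members were called higher (17.8% of all tested genes), and within slide 2 alone 28 of 33 (19.6%). The ganglia are bulk tissue, so more cells that express a gene and more RNA of it per cell cannot be told apart. All 9 markers of dividing cells (Mki67, Top2a, Ccnb1, Ccna2, Cdk1, Pcna, Mcm2, Mcm6 and Rrm2) were also higher in TH-MYCN SMG, with a median difference of 5.06, and their mean level was 2.00 to 4.04 in TH-MYCN SMG and -2.57 to -0.78 in wild-type SMG. Cdk1 read 5.88 in wild-type SMG 1, above all its other readings, against -7.54 to -3.85 in the other wild-type SMG. Its wild-type mean was -3.71 ± 4.05 (SD, n = 8). The median difference falls on Cdk1, and the upper end of the wild-type range on wild-type SMG 1, so both rest on this reading. None of the 9 markers was at background in every sample of either group, and their part in the members' differences was not tested.

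All 10 break repair members with a probe were called higher, with a median difference of 2.43. Rad54l, a motor protein of strand invasion, lay between -1.77 and 0.51 in TH-MYCN SMG (median -0.05), against -4.87 to -3.90 in wild-type SMG (median -4.55). The difference was 4.26 ± 0.26 on the log2 scale (SE; adjusted p = 9.45e-10, limma), or 19.2-fold. Normexp background correction gave a smaller difference, 2.53 (adjusted p = 6.99e-07, limma), for Rad54l. Its relative Rad54b differed by 4.69 ± 0.26 (SE), or 3.36 with normexp background correction. The second Rad54b probe differed by 2.63 and was also called higher. Rad51ap1, which stimulates strand pairing, read 0.65 to 2.89 in TH-MYCN SMG (median 2.18), against -1.65 to -1.27 in wild-type SMG (median -1.46), a difference of 3.54 ± 0.23 (SE). Every TH-MYCN ganglion stood above every wild-type ganglion for these 3 genes.

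Brca2, a mediator of recombination, had levels from 0.20 to 1.81 in TH-MYCN SMG (median 1.42), against -1.26 to -0.63 in wild-type SMG (median -0.69). It differed by 2.09 ± 0.19 (SE; adjusted p = 1.93e-07, limma), with no overlap. Bard1, the partner of BRCA1 in its ubiquitin ligase, read -0.35 to 1.33 in TH-MYCN SMG (median 0.86), against -1.87 to -1.07 in wild-type SMG (median -1.40), a difference of 2.13 ± 0.20 (SE). Of its other probes, 1 differed by 1.99 and was called higher, and 1 differed by 0.30 and was not called. Brca1 was dim: the probe was well above background in 6 of 8 TH-MYCN SMG and 0 of 8 wild-type SMG, with levels of -6.71 to -3.43 (median -4.63) and -8.09 to -7.31 (median -7.59). On the processed signal Brca1 was therefore at least 1.74-fold higher in TH-MYCN SMG. The measured means were -4.94 ± 1.12 in TH-MYCN SMG and -7.66 ± 0.27 in wild-type SMG (SD, n = 8 each). With normexp background correction this difference was 0.03 (adjusted p = 0.911, limma) and the call was lost.

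Brip1, the helicase that binds BRCA1, was well above background in all 8 TH-MYCN SMG and in 0 of 8 wild-type SMG. It read -5.06 to -2.74 in TH-MYCN SMG (median -3.14), against -8.30 to -6.33 in wild-type SMG (median -7.99), and was at least 5.14-fold higher. Such a bound sets the bright group against the lowest signal still well above background on each array of the dim group, or against the probe's own signal where that is higher. It holds for the processed signal only. With normexp background correction Brip1 differed by 0.80 (adjusted p = 0.0149, limma), below its bound of 2.36 on the log2 scale. Palb2, which bridges BRCA1 and BRCA2, differed by 1.91 ± 0.28 (SE), or 0.59 with normexp background correction (adjusted p = 0.0267, limma), and Xrcc3, a recombination factor, by 1.09 ± 0.16 (SE). Xrcc2, another recombination factor, lay between -1.91 and -0.90 in TH-MYCN SMG (median -1.46), against -2.18 to -1.85 in wild-type SMG (median -1.94). At 0.54 ± 0.11 (SE; adjusted p = 0.00055, limma) this was the smallest difference among break repair members, and a second Xrcc2 probe differed by 1.09.

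Of the 9 Fanconi genes, 7 were called higher and 2, Fance and Fancl, were not called, with a median difference of 1.20. Fancd2 and Fanci, the pair that receives ubiquitin, and the core subunit Fanca were all called higher in TH-MYCN SMG. Fancd2 read -4.25 to -1.70 in TH-MYCN SMG (median -2.55), against -7.39 to -6.33 in wild-type SMG (median -6.66). It was well above background in 8 of 8 TH-MYCN SMG and 0 of 8 wild-type SMG, and so was at least 8.63-fold higher on the processed signal. With normexp background correction it differed by 0.98 (adjusted p = 0.00302, limma), below this bound of 3.11 on the log2 scale. Fanci lay at -1.34 to 1.03 in TH-MYCN SMG (median 0.08), against -3.87 to -2.93 in wild-type SMG (median -3.64), a difference of 3.54 ± 0.26 (SE; adjusted p = 1.07e-08, limma). Fanca, a subunit of the core complex, had -1.28 to 0.79 in TH-MYCN SMG (median 0.32), against -4.22 to -3.05 in wild-type SMG (median -3.63), a difference of 3.76 ± 0.24 (SE). With normexp background correction Fanci differed by 2.61 and Fanca by 2.58. No ganglion of one genotype overlapped the other for Fancd2, Fanci and Fanca on the processed signal.

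The other Fanconi genes had smaller differences. Fancb differed by 1.48 ± 0.18 (SE), Fancm, the translocase that anchors the core complex to DNA, by 1.20 ± 0.14 (SE), and Fancg by 0.63 ± 0.11 (SE). With normexp background correction Fancg differed by 0.03 (adjusted p = 0.879, limma) and lost its call. Fance read 3.15 to 3.47 in TH-MYCN SMG (median 3.30), against 3.20 to 3.72 in wild-type SMG (median 3.52), a difference of -0.18 ± 0.09 (SE; adjusted p = 0.104, limma). With slide as a block Fance was called lower (adjusted p = 0.0124, limma), as it was with the replicate block (0.0251), with all 4 groups in 1 fit (0.0402) and within slide 2 alone (-0.25, adjusted p = 0.0174), while setting the median tested gene to 0 gave 0.042. Fancl, the ubiquitin ligase subunit, differed by 0.18 ± 0.11 on its brighter probe (SE; adjusted p = 0.156, limma), while its dimmer probe differed by 0.55 and was called higher. The mean of both probes was called higher (0.37), as was the brighter probe with the median tested gene set to 0 (0.40) and within slide 2 alone (0.34).

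Fancc, another core subunit, gave answers that depend on the probe. The probe used here, for NM_007985, read -1.84 to -1.42 in TH-MYCN SMG (median -1.63), against -2.19 to -1.82 in wild-type SMG (median -2.05), a difference of 0.40 ± 0.08 (SE; adjusted p = 0.000292, limma). With normexp background correction this was 0.20 (adjusted p = 0.0966, limma). The second Fancc probe, for NM_001042673, averaged -1.17 ± 0.39 in TH-MYCN SMG and -2.80 ± 0.22 in wild-type SMG (SD, n = 8 each), a difference of 1.63. Both probes were called higher in this comparison, and they part again in the spheres.

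Among the genes that process ends and junctions, Exo1 and Blm were called higher and Rad50 and Nbn were not. Exo1, the exonuclease that resects broken ends, read -0.12 to 2.54 in TH-MYCN SMG (median 1.64), against -5.73 to -3.80 in wild-type SMG (median -4.50). The difference was 6.08 ± 0.34 (SE; adjusted p = 3.66e-10, limma). Exo1 was well above background in all 8 TH-MYCN SMG and in 6 of 8 wild-type SMG, so the size of the difference rests partly on dim spots, and normexp background correction gave 4.20. Blm, the helicase that unwinds joint molecules, lay at -0.54 to 0.89 in TH-MYCN SMG (median 0.57), against -1.31 to -1.01 in wild-type SMG (median -1.06), a difference of 1.56 ± 0.16 (SE).

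Rad50 and Nbn belong to the MRN complex, which tethers broken ends and starts ATM signalling. Rad50 had levels of 0.01 to 0.46 in TH-MYCN SMG (median 0.20), against 0.01 to 0.33 in wild-type SMG (median 0.11), a difference of 0.10 ± 0.07 (SE; adjusted p = 0.251, limma). With the median tested gene set to 0 it was 0.32 and called higher (adjusted p = 0.00151, limma). Its second probe differed by 0.23 and was not called either. Nbn read -1.31 to -0.70 in TH-MYCN SMG (median -0.95), against -1.08 to -0.35 in wild-type SMG (median -0.74), a difference of -0.19 ± 0.12 (SE; adjusted p = 0.162, limma). The 2 genotypes overlapped for both genes.

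In the single-strand and replication checkpoint group 5 of 8 members were called higher, 1 lower and 2 were not called. Clspn encodes claspin, the adaptor through which ATR reaches CHK1. Clspn read -3.29 to -0.86 in TH-MYCN SMG (median -1.50), against -7.89 to -6.30 in wild-type SMG (median -7.46). The probe was well above background in 8 of 8 TH-MYCN SMG and 0 of 8 wild-type SMG. On the processed signal the gene was at least 16.6-fold higher, the largest of the 4 such bounds. With normexp background correction Clspn differed by 1.83 (adjusted p = 7.44e-05, limma), below this bound of 4.05 on the log2 scale. Topbp1, the activator of ATR, differed by 1.87 ± 0.16 (SE), and its wild-type levels had the narrow spread of 0.06 (SD, n = 8).

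Atr, the kinase itself, lay at 1.16 to 2.06 in TH-MYCN SMG (median 1.71), against 0.59 to 1.15 in wild-type SMG (median 0.89), a difference of 0.77 ± 0.13 (SE; adjusted p = 7.7e-05, limma) with no overlap. Atrip, the partner that brings ATR to RPA, was the 1 member called lower, with a difference of -0.18 ± 0.07 (SE; adjusted p = 0.0384, limma), with overlapping groups. When the median tested gene was set to 0, its difference was 0.042 (adjusted p = 0.638, limma). Chek1 was measured poorly, being well above background in 6 of 8 TH-MYCN SMG and 3 of 8 wild-type SMG. It read -5.56 to -4.17 in TH-MYCN SMG (median -4.83), against -7.73 to -2.84 in wild-type SMG (median -5.71), a difference of 0.90 ± 0.51 (SE; adjusted p = 0.125, limma). It was -0.42 with normexp background correction (adjusted p = 0.106, limma) and 1.51 within slide 2 alone, where it was called higher (adjusted p = 0.0183, limma).

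The 3 subunits of RPA, the protein that coats single-stranded DNA, had different calls. Rpa2 lay at -0.15 to 1.06 in TH-MYCN SMG (median 0.74), against -0.65 to -0.37 in wild-type SMG (median -0.56), a difference of 1.17 ± 0.14 (SE; adjusted p = 4.04e-06, limma). Rpa3 differed by 1.81 ± 0.23 (SE) and was also called higher. Rpa1, the large subunit, read 3.59 to 4.12 in TH-MYCN SMG (median 3.72), against 3.27 to 3.98 in wild-type SMG (median 3.63). Its difference of 0.12 ± 0.11 (SE; adjusted p = 0.312, limma) was not called, but it was called higher after quantile normalization (0.28) and with the median tested gene set to 0 (0.34). The differences between subunits were not tested.

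All 3 break signalling members were called higher. Atm, the kinase that answers to double-strand breaks, lay at -0.68 to -0.16 in TH-MYCN SMG (median -0.42), against -1.03 to -0.48 in wild-type SMG (median -0.74). The groups overlapped, the difference was 0.30 ± 0.10 (SE; adjusted p = 0.0142, limma), and within slide 1 alone it was 0.32 with an adjusted p of 0.065 (limma). Parp1, which marks breaks with poly(ADP-ribose), read 0.26 to 1.33 in TH-MYCN SMG (median 0.84), against -0.62 to 0.31 in wild-type SMG (median -0.24), a difference of 1.04 ± 0.15 (SE). Chek2, the kinase below ATM, was well above background in 8 of 8 TH-MYCN SMG and 1 of 8 wild-type SMG, with means of -4.16 ± 0.45 and -6.79 ± 0.71 (SD, n = 8 each). It was called higher with an adjusted p of 9.58e-07 (limma), while normexp background correction gave a difference of 0.20 (adjusted p = 0.426, limma).

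The TH-MYCN ganglia differed widely among themselves. The median SD over the members was 0.48 in TH-MYCN SMG, against 0.14 in passaged spheres, 0.15 in primary spheres and 0.24 in wild-type SMG. These spreads were not set against those of all genes. TH-MYCN SMG 4 was the lowest of its group for 28 of 34 members, and TH-MYCN SMG 8 or 2 the highest for 17 and 12. The lowest and highest ganglia were not counted over all genes, so this is not read as particular to the members. Clspn, for example, read -3.29 in TH-MYCN SMG 4 and -0.95 in TH-MYCN SMG 8. The dividing-cell markers were ordered alike: Mki67 read 3.54 in TH-MYCN SMG 4, the lowest of its group. Left out in turn, no single ganglion moved the count of members called higher outside 27 to 28.

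**Figure D2:**
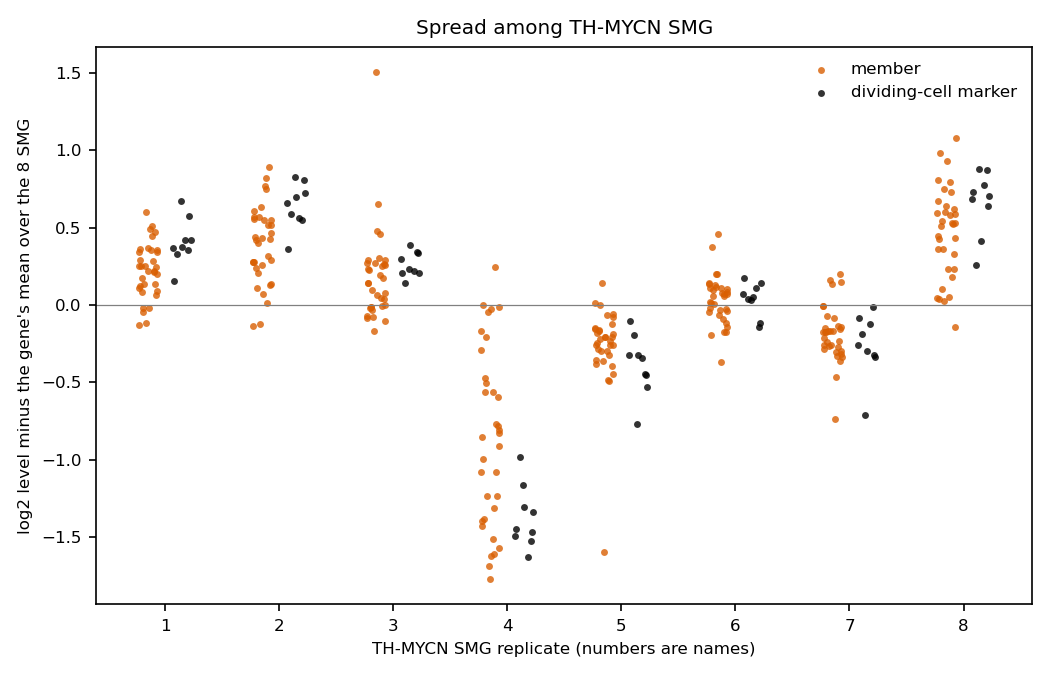
Log2 level of each member (orange) and each of 9 dividing-cell markers (black) in the 8 TH-MYCN SMG, minus that gene's mean over the 8 (y axis); replicate numbers are names. TH-MYCN SMG 4 is lowest for the markers and for 28 of 34 members. TH-MYCN SMG 8 or 2 is highest for the markers and for most members.

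Markers of other cell types moved too. All 7 glial and all 6 fibroblast markers were lower in TH-MYCN SMG, with median differences of -1.06 and -0.72, and all 6 tested macrophage markers were higher, with a median of 1.43. The mean level of the macrophage markers was 1.67 to 2.65 in TH-MYCN SMG and 0.82 to 1.43 in wild-type SMG, that of glial markers 0.80 to 1.83 and 2.18 to 2.50, and that of fibroblast markers 3.67 to 4.08 and 4.38 to 4.95. None of these markers was at background in every sample of either genotype. Of the sympathetic markers 1 of 9 was higher and 5 were lower, and of the endothelial markers 0 of 6 and 5. The part of these cell types in the members' differences was not tested.

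A further 30 genes of the same pathways gave 21 higher, 3 lower and 6 not called, with a median of 0.70. Rad51d, a recombination factor, was lower with a difference of -0.55 ± 0.12 (SE), as were Wdr48, the partner of the USP1 deubiquitinase (-0.18), and Rnf8, a ubiquitin ligase at breaks (-0.30). Not called were Rad52 (0.11), Fan1 (-0.18), Rmi1 (-0.04), Mus81 (-0.13), Trp53bp1 (0.18) and Rnf168 (-0.00). Of other repair routes, end joining had 3 of 9 genes higher and 2 lower (median -0.06), base excision repair 6 of 11 higher and 1 lower (median 0.70), nucleotide excision repair 3 of 13 higher and 3 lower (median 0.04) and mismatch repair 5 of 7 higher and 0 lower (median 0.52). No test was made between these lists and the members.

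The second comparison asked how tumour spheres in culture differ from the TH-MYCN ganglia. Every tested member was called higher in primary spheres, 34 of 34, and 0 lower (limma), where 50.2% of 15650 tested genes were called higher and 32.9% lower; at an unadjusted p under 0.05 the counts were also 34 and 0, against 50.7% and 33.2% of all tested genes. With the median tested gene set to 0 the shares were 37.7% and 40.4%, with 33 members higher and 0 lower. The members' median difference on the probes used was 1.32, ranging from 0.42 for Atm to 1.94 for Exo1, and that of all tested genes was 0.27. Larger differences came from the other probe of Atm (0.89), Rad54b (1.84), Rad50 (1.21), Xrcc2 (1.42), Palb2 (1.80) and Fance (0.56). Smaller ones came from other probes of Bard1 (1.61 and 0.96) and Fancl (0.42), and all of these were called higher. In 31 members every primary sphere lay above every TH-MYCN ganglion, as in 34.6% of all tested genes. The exceptions were Brca1, Rad54b and Nbn. The same TH-MYCN ganglia serve in both comparisons, so the differences of the 2 comparisons are not independent.

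Among break repair members, Brip1 had the largest difference, 1.76 ± 0.26 (SE; adjusted p = 9.93e-06, limma). It lay at -1.86 to -1.41 in primary spheres (median -1.61), above all the TH-MYCN SMG, whose highest read -2.74. Rad54l read 1.26 to 1.58 in primary spheres (median 1.38) and differed by 1.64 ± 0.24 (SE). Rad51ap1 read 3.45 to 3.89 (median 3.56) and differed by 1.53 ± 0.24 (SE). The primary spheres of each of these genes lay within a range narrower than that of the ganglia. Brca2 lay at 2.01 to 2.52 (median 2.30), a difference of 1.02 ± 0.18 (SE), and Bard1 at 2.18 to 2.53 (median 2.39), a difference of 1.64 ± 0.17 (SE). Brca1 was well above background in all 8 primary spheres, at -3.80 to -3.14 (median -3.55). It differed by 1.44 ± 0.38 (SE; adjusted p = 0.00224, limma), and TH-MYCN SMG 3, at -3.43, read within the range of the spheres. Xrcc2 lay at -0.68 to -0.21 (median -0.53) and differed by 0.94 ± 0.11 (SE). Rad54b differed by 0.85 ± 0.25 (SE; adjusted p = 0.00466, limma), and with the primary spheres of slide 3 only by 0.75 (adjusted p = 0.0597, limma). Palb2 differed by 1.52 and Xrcc3 by 1.00.

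Fanconi members differed by 0.51 to 1.67, with a median of 1.00. Fanca lay at 1.60 to 1.90 in primary spheres (median 1.81), 1.67 ± 0.22 (SE) above the TH-MYCN SMG. Fancd2 read -1.29 to -0.67 (median -1.09), a difference of 1.61 ± 0.26 (SE), and Fanci 1.18 to 1.77 (median 1.45), a difference of 1.43 ± 0.24 (SE). These 3 genes, higher in TH-MYCN SMG than in wild-type SMG, were thus higher again in the spheres. Fance, which had not been called between the genotypes, read 3.68 to 3.91 in primary spheres (median 3.82) and differed by 0.51 ± 0.06 (SE; adjusted p = 1.18e-06, limma). After quantile normalization its difference was 0.13 (adjusted p = 0.0709, limma). Fancc lay at -0.85 to -0.49 (median -0.59) and differed by 1.01 ± 0.07 (SE; adjusted p = 1.28e-09, limma). Its second probe averaged -1.25 ± 0.16 in primary spheres and -1.17 ± 0.39 in TH-MYCN SMG (SD, n = 8 each) and was not called, so the call for Fancc holds for 1 of 2 probes. Fancb differed by 0.98, Fancg by 1.00, Fancm by 0.91 and Fancl by 0.72.

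Exo1 read 3.21 to 3.58 in primary spheres (median 3.39), and its 1.94 ± 0.27 (SE; adjusted p = 3.77e-06, limma) was the largest difference of all 34 members. Blm lay at 1.59 to 2.10 (median 1.87) and differed by 1.39 ± 0.17 (SE). The MRN genes, not called between the genotypes, were both called here. Rad50 read 0.76 to 0.95 (median 0.88), a difference of 0.66 ± 0.06 (SE; adjusted p = 3.72e-08, limma), and Nbn -0.88 to -0.02 (median -0.27), a difference of 0.66 ± 0.13 (SE; adjusted p = 0.000131, limma).

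Of the checkpoint members, Chek1 was now well above background in all 8 primary spheres, at -3.61 to -2.83 (median -3.34). It differed by 1.49 ± 0.20 (SE; adjusted p = 2.54e-06, limma), and no TH-MYCN ganglion reached the spheres. Clspn lay at -0.47 to -0.06 (median -0.23), a difference of 1.45 ± 0.27 (SE). Atr read 2.17 to 2.50 (median 2.29) and differed by 0.65 ± 0.12 (SE). Rpa2, at 2.04 to 2.53 (median 2.23), differed by 1.61 ± 0.14 (SE), and Rpa1, at 4.75 to 5.13 (median 4.87), by 1.16 ± 0.08 (SE; adjusted p = 1.17e-09, limma). Rpa3 differed by 1.55, so all 3 RPA subunits were called higher here. Topbp1 differed by 1.49 and Atrip by 0.51. In break signalling, Parp1 lay at 1.86 to 2.35 (median 2.03) and differed by 1.25 ± 0.13 (SE), while Chek2 differed by 1.67 ± 0.17 (SE). Atm read -0.15 to 0.16 (median -0.02), and its 0.42 ± 0.08 (SE; adjusted p = 0.000113, limma) was the smallest difference of the 34 on the probes used. The second Atm probe differed by 0.89 and was also called higher. Setting the median tested gene to 0 left the Atm probe used here with 0.14 (adjusted p = 0.102, limma).

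**Figure D3:**
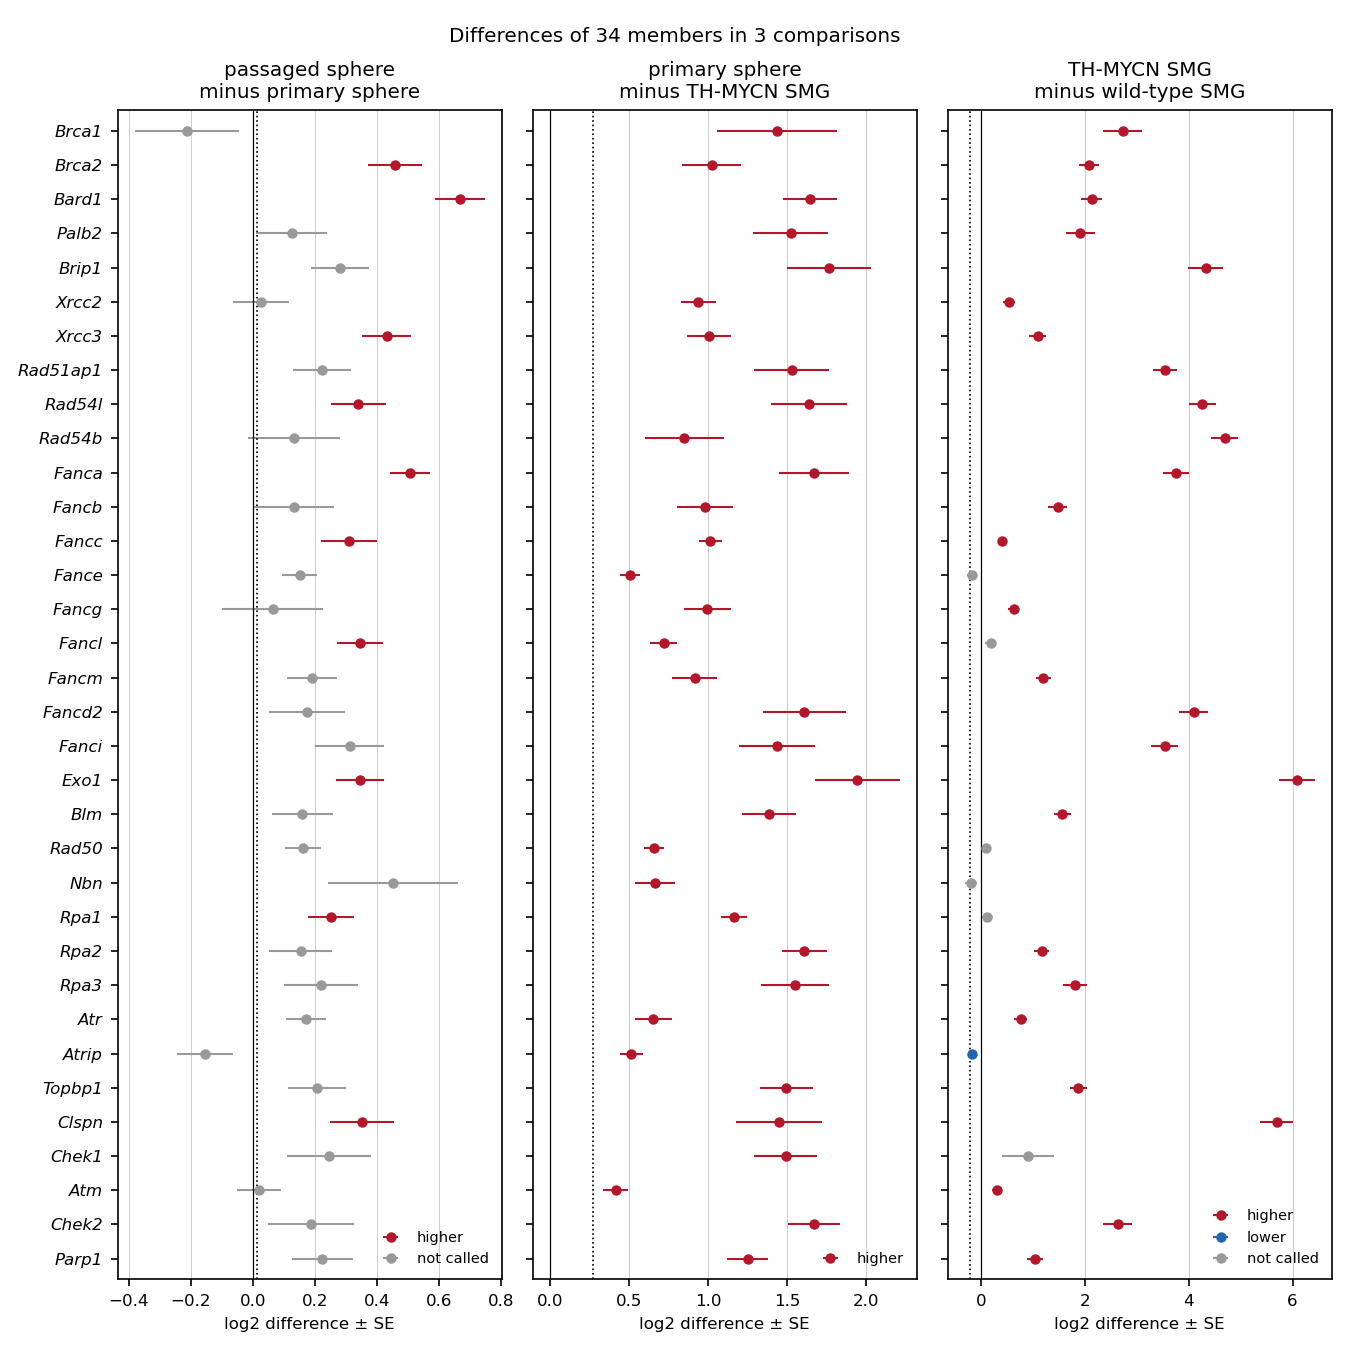
Log2 difference of each of the 34 members with its standard error in passaged minus primary spheres, primary spheres minus TH-MYCN SMG and TH-MYCN SMG minus wild-type SMG (x axes of different width); red is called higher, blue called lower and grey not called, and the dotted line is the median of all tested genes. Of the 34 members 10, 34 and 27 were called higher in these panels.

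The marker lists moved in the same comparison. All 9 dividing-cell markers were higher in primary spheres, with a median difference of 1.71, and their mean level was 4.99 to 5.18 in primary spheres and 2.00 to 4.04 in TH-MYCN SMG. All 7 glial, 6 macrophage and 6 fibroblast markers were lower. Well above background in no primary sphere were 1 of the glial, 2 of the macrophage and 1 of the fibroblast markers, so the sizes of these differences are not given. Mean levels in primary spheres were -4.55 to -0.90 for glia, -5.97 to -4.86 for macrophages and -5.88 to -2.60 for fibroblasts. Of the endothelial markers 1 of 6 was higher and 5 lower, and of the sympathetic markers 3 of 9 higher and 4 lower. The sympathetic differences ran from -4.73 to 1.33. The part of these markers in the members' differences was not tested.

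Of the further 30 pathway genes 27 were higher, 1 lower and 2 not called in primary spheres, with a median of 0.83. The lower gene was Dmc1, the meiotic recombinase, at -0.96 ± 0.36 (SE; adjusted p = 0.021, limma), which was well above background in 2 of 8 primary spheres and 3 of 8 TH-MYCN SMG. Fan1 (0.52) and Rnf8 (0.02) were not called. End joining had 7 of 9 genes higher and 1 lower, base excision repair 9 of 11 and 1, nucleotide excision repair 9 of 13 and 0, and mismatch repair 7 of 7 and 0. Their median differences were 0.73, 0.80, 0.54 and 0.85. These lists stand beside a comparison in which about 1 in 2 tested genes was called higher.

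**Figure D4:**
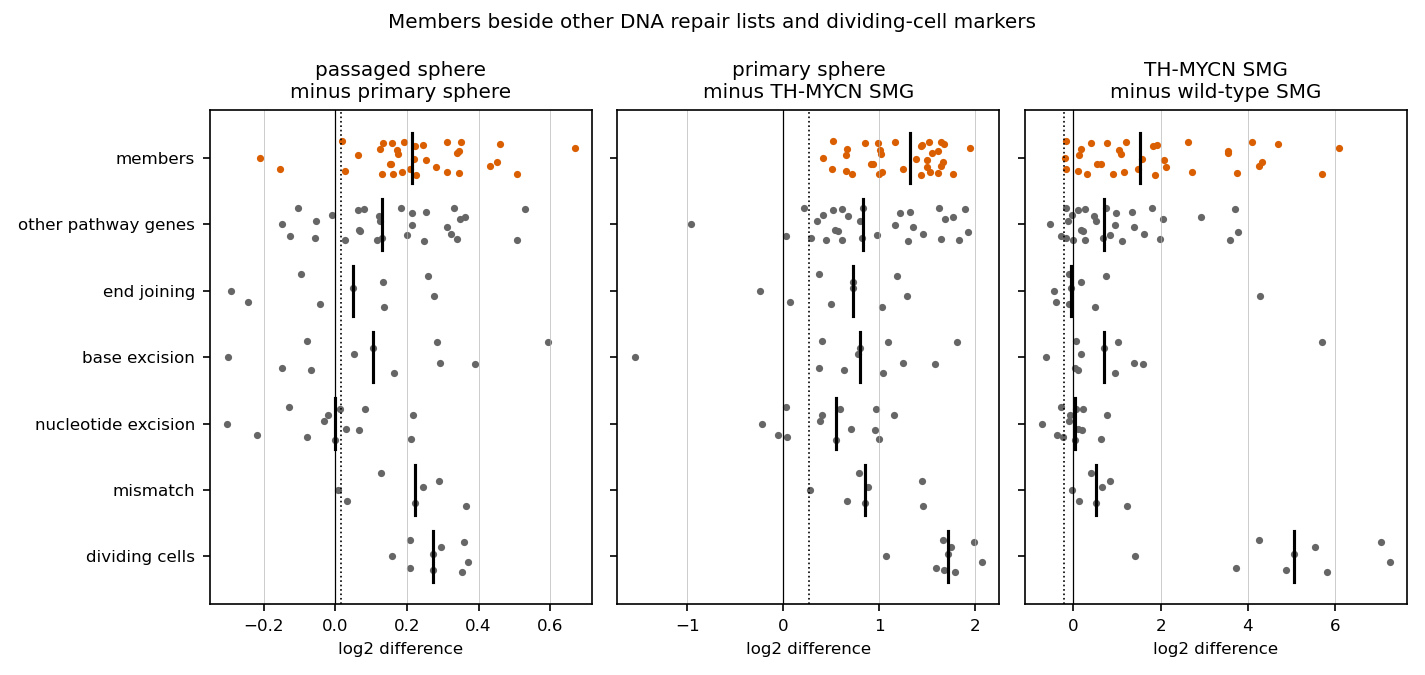
Log2 difference of each gene (points) and the median (black bar) for the members, 30 further pathway genes, 4 other DNA repair lists and dividing-cell markers in the 3 comparisons (x axes of different width); the dotted line is the median of all tested genes. Between TH-MYCN SMG and wild-type SMG the members' median is 1.52, against -0.06 for end joining, 0.04 for nucleotide excision and 5.06 for dividing-cell markers. The last median falls on Cdk1, whose reading in wild-type SMG 1 (5.88) stood far above the other wild-type SMG.

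The third comparison asked whether 5 passages changed the spheres. Differences were small: 10 of 34 members were called higher in passaged spheres and 0 lower (limma), where 5.16% of 14156 tested genes were called higher and 6.54% lower. At an unadjusted p under 0.05 these counts were 19 and 0, against 14.6% and 14.5% of all tested genes. The members' median difference was 0.21, that of all tested genes 0.01, and 32 of the 34 differences were above 0, as were 52.5% of all. In 7 members every passaged sphere lay above every primary sphere, as in 4.66% of all tested genes. The count rests on small differences: it was 5 within slide 3 alone (2.16% of all tested genes) and 7 within slide 4 alone (3.73%), and 6 when each gene's spread was taken separately in each group (3.04%). It was 4 without passaged sphere 2 and likewise without passaged sphere 4, and 6 without primary sphere 4, and the share of all genes called fell there too.

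Bard1 differed most. It read 3.04, 3.21, 2.90 and 3.03 in passaged spheres 1 to 4, all above the highest primary sphere at 2.53, a difference of 0.67 ± 0.08 (SE; adjusted p = 0.000639, limma). It was called in all 18 alternative settings and in all 12 fits without 1 sample. Fanca read 2.25, 2.34, 2.30 and 2.27 in passaged spheres, again above every primary sphere, and differed by 0.51 ± 0.06 (SE; adjusted p = 0.000938, limma). Brca2 read 2.72, 2.83, 2.69 and 2.81, a difference of 0.46 ± 0.09 (SE; adjusted p = 0.00731, limma). Xrcc3 differed by 0.43 ± 0.08 (SE; adjusted p = 0.00621, limma). Fanca, Brca2 and Xrcc3 were likewise called in all 12 fits without 1 sample, and in 17, 17 and 16 of the 18 settings.

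The other 6 calls were Rad54l (0.34), Fancc (0.31), Fancl (0.35), Exo1 (0.35), Clspn (0.35) and Rpa1 (0.25). Exo1 read 3.62, 3.82, 3.68 and 3.86 in passaged spheres, above all primary spheres. Rad54l read 1.77, 1.95, 1.49 and 1.66 and Clspn 0.15, 0.40, -0.20 and 0.11 in passaged spheres, and both overlapped the primary spheres. Fancc read -0.41, -0.03, -0.47 and -0.33 in passaged spheres, and its second probe differed by 0.86 and was also called higher. Fancc, Clspn and Rpa1 had adjusted p of 0.0461, 0.0462 and 0.0466 (limma). They kept their calls in 2, 2 and 3 of the 12 fits without 1 sample. Rpa1 read 5.11, 5.18, 5.21 and 5.21 in passaged spheres.

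Most members were not called between passaged and primary spheres. Brca1 read -3.53, -3.40, -4.17 and -3.75 in passaged spheres, a difference of -0.21 ± 0.17 (SE; adjusted p = 0.432, limma). It was well above background on both arrays of 3 of the 4 passaged cultures. Rad51ap1 read 3.86, 3.94, 3.56 and 3.96, and Brip1 -1.27, -1.31, -1.53 and -1.22, with differences of 0.22 ± 0.09 and 0.28 ± 0.09 (SE). Atm, at 0.05, 0.15, -0.12 and -0.10 in passaged spheres, had the smallest difference, 0.02 ± 0.07 (SE). Xrcc2 followed at 0.03 ± 0.09 (SE), with -0.48, -0.36, -0.66 and -0.41.

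In the Fanconi pair, Fancd2 read -0.83, -0.73, -1.09 and -0.73 in passaged spheres and differed by 0.17 ± 0.12 (SE), and Fanci 1.80, 1.80, 1.61 and 1.95, by 0.31 ± 0.11 (SE). Fance read 3.89, 3.95, 4.02 and 4.01, a difference of 0.15 ± 0.06 (SE). Blm read 1.97, 2.07, 1.93 and 2.03, a difference of 0.16 ± 0.10 (SE). None of these 4 was called. Nbn was uneven, at -0.23, 0.84, -0.28 and 0.20 in passaged spheres 1 to 4. Passaged sphere 2 held the highest value, and the difference of 0.45 ± 0.21 (SE; adjusted p = 0.176, limma) was not called. Rad50 read 0.90, 1.12, 1.02 and 1.10 and differed by 0.16 ± 0.06 (SE).

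The checkpoint kinases lay close in both kinds of sphere. Atr read 2.42, 2.51, 2.53 and 2.49 in passaged spheres and differed by 0.17 ± 0.07 (SE; adjusted p = 0.105, limma). Chek1 read -3.22, -2.97, -3.16 and -3.01 and differed by 0.25 ± 0.14 (SE; adjusted p = 0.252, limma). Rpa2 read 2.45, 2.61, 2.16 and 2.37, and Parp1 2.40, 2.34, 2.21 and 2.22, with differences of 0.15 ± 0.10 and 0.22 ± 0.10 (SE). Each of these passaged ranges overlapped that of the primary spheres. The 2 arrays of a passaged culture differed by a median of 0.08 to 0.15 over the members, so differences of this size are near the spread between arrays. The largest difference of any member between the arrays was 0.43, 0.34, 1.70 and 0.32 in passaged cultures 1 to 4. The remaining members were not called either: Rad54b (0.13), Palb2 (0.13), Fancb (0.13), Fancg (0.06), Fancm (0.19), Topbp1 (0.21), Rpa3 (0.22), Chek2 (0.19) and Atrip (-0.15).

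Of the dividing-cell markers 4 of 9 were higher in passaged spheres and 0 lower, with a median of 0.27 and mean levels of 5.25 to 5.44 in passaged spheres and 4.99 to 5.18 in primary spheres. Of the sympathetic markers 3 of 9 were higher and 1 lower, of the tested glial markers 0 of 6 higher and 2 lower, and of the 2 macrophage, 3 fibroblast and 2 endothelial markers that could be tested none was called. Mean levels were -4.98 to -4.44 in passaged spheres and -4.55 to -0.90 in primary spheres for glia, and -5.65 to -5.18 and -5.88 to -2.60 for fibroblasts. Of these lists, 5 of 7 glial, 4 of 6 macrophage and 5 of 6 fibroblast markers were well above background in no passaged sphere. Their part in the members' differences was not tested. Of the further pathway genes 6 of 29 were higher and 0 lower, with a median of 0.13: Rbbp8 (0.32), Usp1 (0.35), Wee1 (0.51), Cdc25a (0.31), Timeless (0.34) and Mdc1 (0.53). The other 23 had differences from -0.15 (Mus81) to 0.36 (Rmi2). Mismatch repair had 3 of 7 genes higher, base excision repair 1 of 11, and end joining and nucleotide excision repair 0 each, with 1 lower in each of the last pair. Primary spheres also differed by slide: in 8 of 34 members, among them Fancg and Blm, all 4 cultures of slide 4 lay above all 4 of slide 3, as in 9.36% of all genes tested between the spheres, while the reverse held in 0 members and 12.9% of all genes. Fancg averaged -1.65 on slide 4 and -2.20 on slide 3.

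Across the 4 groups, 30 of 34 members had their mean levels in the order passaged spheres, primary spheres, TH-MYCN SMG and wild-type SMG, from high to low. The exceptions were Brca1, Atrip, Fance and Nbn. For Brca1 and Atrip the passaged mean lay below the primary mean, and for Fance, Atrip and Nbn the TH-MYCN mean lay below the wild-type mean. Fancc and Palb2 keep the order on the probe used only. The second Fancc probe averaged -1.25 in primary spheres and -1.17 in TH-MYCN SMG. The second Palb2 probe averaged -2.63 in passaged spheres and -2.61 in primary spheres. The order was not counted over all genes, so it is not read as particular to the members. Neighbours in this order that were not called are not shown to differ: 24 members between passaged and primary spheres and 6 between TH-MYCN SMG and wild-type SMG.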

How the data were processed

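Agilent mouse arrays with 1 colour (32 arrays) measured RNA of 28 samples. Cy3 labelling started from 40 or 200 ng of total RNA, per the labels' protocols, which do not tie an amount to a sample. Per the file headers, the spot intensity the authors deposited comes from Agilent Feature Extraction, version 11.5.1.1, background-subtracted and not normalized between arrays. The value table the authors deposited holds log2 values: once a constant is taken from each probe, 99.86% of them match (tolerance 0.05) log2 signal scaled to the 75th percentile. This settles the scale and the direction of the table. What it was centred on stays unknown, and its column medians ran from -0.48 to 0.51.

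From the intensities, log2 signal minus the array's 75th percentile was computed, leaving out control spots and outlier spots (109 to 211 per array). Saturated spots numbered 0, and replicate spots were averaged. Probes were named by RefSeq accession through a GRCm38.p6 gene table (27235 of 55681 probes, 1 symbol each). A probe was kept if well above background in at least 4 samples of a comparison, and the kept probe with the highest mean stood for its gene. Each comparison fitted its own pair of groups with limma 3.58.1 in R 4.3.3 (lmFit, eBayes, two-sided; Benjamini-Hochberg over all tested genes, adjusted p under 0.05), and the code was tested on simulated data. The calls assume equal spread in both groups, and simulated data with unequal spread gave more false calls than the threshold allows in all 3 comparisons, and the most where 4 cultures met 8, so the calls between passaged and primary spheres are not held to that rate. Separate spreads were therefore added as alternatives after seeing the data, as were fits within slides 3 and 4. Values of every sample or the range are given for 16 members chosen by role and for the members with the 2 largest and 2 smallest differences per comparison; of further pathway genes, those called lower or not called are named in the first 2 comparisons and given by their range in the last. The members, lists and rules were chosen with earlier results of these data known. The files hold no mean signal, so normexp (offset 50) used the median signal and median background. The precision is limited by the number of arrays. Replicate numbers shared by groups were not taken to pair samples, since no label ties them and not every pair correlated: deviations correlated over 0.1 in 7 of 8, 1 of 8 and 2 of 4 same-numbered pairs of the 3 comparisons. In the first, numbers 1 to 4 share a slide and 5 to 8 the other, and slide was also fitted as a block.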

Additional observations from a re-analysis of the deposited data

Results flagged for a closer look

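Each member was checked in each group for a sample far from the rest of its group, by the gap to its nearest neighbour over the group's range. Of 136 such checks 9 stood out, and chance gives about 1 in 20. TH-MYCN SMG 4 lay far below the other 7 TH-MYCN ganglia for 6 members: Bard1 (-0.35, the others 0.56 to 1.33), Rad54l (-1.77, the others -0.56 to 0.51), Brip1 (-5.06, the others -3.74 to -2.74), Fanca (-1.28, the others -0.14 to 0.79), Fancd2 (-4.25, the others -2.83 to -1.70) and Blm (-0.54, the others 0.27 to 0.89). Clspn read -6.30 in wild-type SMG 1, above the other wild-type ganglia at -7.89 to -7.22, all of them not well above background. Fancm read 0.39 in passaged sphere 3, below the other 3 cultures at 0.63 to 0.64. Atrip read 2.44 in primary sphere 6, above the others at 1.89 to 2.15.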

How the results depend on the processing

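The count of members called higher in TH-MYCN SMG stayed at 23 to 30 under the alternatives run, and that in primary spheres at 33 to 34, with 0 lower. The share of all tested genes called higher ran from 16.9% to 32.6% in the first of these comparisons and from 37.7% to 57.1% in the second. Leaving out 1 sample at a time gave member counts of 27 to 28 and 34. The 1 member called lower in TH-MYCN SMG became 0 with normexp, quantile normalization, the median gene at 0, no filter, or within slide 1, and 2 with all 4 groups in 1 fit, the replicate block or slide as a block, the second being Fance, and it was 0 to 2 with 1 sample left out. The share of all tested genes called lower in TH-MYCN SMG ran from 26.2% to 47.7% under the alternatives. Atrip, at -0.18, turned to 0.042 with the median gene at 0. The 10 members called higher in passaged spheres became 2 with all 4 groups in 1 fit and 6 with the replicate block. They became 6 with separate spreads, 5 within slide 3 and 6 with the primary spheres of slide 4 only. With 1 sample left out the count ran from 4 to 11, and the cause was not tested. Of these settings, shares of all tested genes are given above for slide 3 and separate spreads only. The other counts are therefore not read against them. Between passaged and primary spheres the share of all tested genes called higher also moved with the setting. It was 3.38% with normexp (9 members) and 19.8% with no filter (10 members). Whether the members lost calls more than other genes did was not tested. The block on replicate numbers kept 27 members higher in TH-MYCN SMG (23.2% of all tested genes) and 34 in primary spheres (50.5%). A random slide block was not run for passaged spheres, whose cultures average 1 array of each slide. Dim probes limit several members. With normexp the members' median difference in TH-MYCN SMG was 0.90, and Brca1, Fancc, Fancg, Chek2 and Atrip lost their calls. Fancd2 differed by 0.98, Brip1 by 0.80, Palb2 by 0.59 and Clspn by 1.83. Rad54l (2.53), Rad54b (3.36), Fanca (2.58), Fanci (2.61) and Exo1 (4.20) kept their calls with smaller differences. The lower bounds given for Brca1, Brip1, Fancd2 and Clspn hold for the processed signal only, since their normexp differences lie below them.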
